A study of Schizosaccharomyces pombe with 12 samples.

Results

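Described here are genes of sugar uptake and gluconeogenesis in fission yeast (Schizosaccharomyces pombe). They are the 8 hexose transporter genes ght1 to ght8, the invertase gene inv1 and the fructose-1,6-bisphosphatase gene fbp1. They were chosen by gene symbol, and all 10 of the 10 symbols were found, each on 1 probe set, among 2896 S. pombe genes with a named probe set. RNA was measured on 12 oligonucleotide arrays in 4 groups of 3 independent cultures: mis4-367 at 37 °C, mis4+ at 37 °C, mis4-367 at 25 °C and mis4+ at 25 °C. The labels do not say whether the arrays of a strain at 25 and 37 °C came from the same cultures. Mis4 loads the cohesin ring onto chromosomes, mis4-367 is a thermosensitive allele and mis4+ is the wild type. All 4 groups were h- cells that carried ura4+-pREP2-res1 and were arrested in G1 by overproduced C-terminal Res1 fragment, which withdraws the transcription factor Cdc10. Cells grew in EMM2 medium, left the cycle after 7 doublings without thiamine at 25 °C, and then spent 2 h at 37 °C. The 25 °C arrays were taken before the shift, so the higher temperature and the 2 h of further time in arrest and in the medium cannot be told apart. The carbon source of the medium is not given in the labels.

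Fission yeast takes up hexoses through a family of membrane transporters that differ in affinity and substrate. When glucose is plentiful, the cAMP-dependent kinase Pka1 and the zinc finger repressor Scr1 hold down genes for poorer carbon sources, and when glucose runs low the activator Rst2 and the Atf1-Pcr1 factor switch such genes on. Fbp1 catalyses a step of gluconeogenesis and is the classical gene of this system, and Inv1 is the secreted enzyme that splits sucrose outside the cell. Of the transporters, Ght5 is the main high-affinity glucose carrier, Ght1 and Ght2 also carry glucose, Ght3 carries gluconate and Ght6 prefers fructose.

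By gene order in the reference table (assembly ASM294v3), 4 of the transporter genes lie in 1 stretch of chromosome III. The order is ght6, then ght5 with 2 other protein-coding genes between them, then ght8 after 4 more, and ght1 directly beside ght8. Of the remaining members, inv1 is elsewhere on III, ght7, ght4, fbp1 and ght2 are on II, and ght3 is on I. Towards the nearer chromosome end, ght7 has 12, ght3 27, ght4 45 and fbp1 64 protein-coding genes outside it. The stretch on III starts after 72, and for ght2 and inv1 the counts are 454 and 275.

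Median intensities of the arrays over the S. pombe genes were 394 to 433. Replicate 3 of mis4+ at 37 °C stood apart, with an SD over genes of 0.202 (log2) against the other arrays of its group, where the other 11 arrays had 0.0654 to 0.134. The mis4 transcript was -0.07 ± 0.07 (SE, log2) in mis4-367 against mis4+ at 37 °C (limma, adjusted p = 0.541), which is no check of the allele, since a thermosensitive protein need not alter its mRNA. Of 6 measured genes of a heat response list, 4 rose and 1 fell on the shift in each strain. Of all genes, 33.4% rose in each strain, and 23% fell in mis4-367 and 21.9% in mis4+. The listed gene that fell was ssa1, at -0.77 ± 0.12 (SE, log2) in mis4-367 and -0.37 ± 0.12 in mis4+ (limma, adjusted p = 0.000122 and 0.0161). The largest rise was that of the small heat shock protein gene hsp16, by 1.10 ± 0.05 (SE, log2) in mis4-367 and 0.83 ± 0.05 in mis4+ (adjusted p = 7.47e-09 and 9.38e-08).

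Intensities below are the deposited values on a linear scale, and changes are differences of mean log2 values of 3 arrays against 3. A gene is said to have risen, fallen or changed where limma gave an adjusted p (Benjamini-Hochberg over all 2896 genes) under 0.05. Of the members, 8 were brighter on every array than the background level of 10.7, the 95th percentile of probe sets made for another yeast. The dim ones were ght7, at 9.61 to 13.1 over the 12 arrays, and ght3, at 10.6 to 39.9. For such dim genes the array summary can understate fold changes, which was not tested here. No member's probe set is marked as shared between sequences. In such bulk RNA, fewer cells with a transcript and less of it per cell cannot be told apart.

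**Figure D1:**
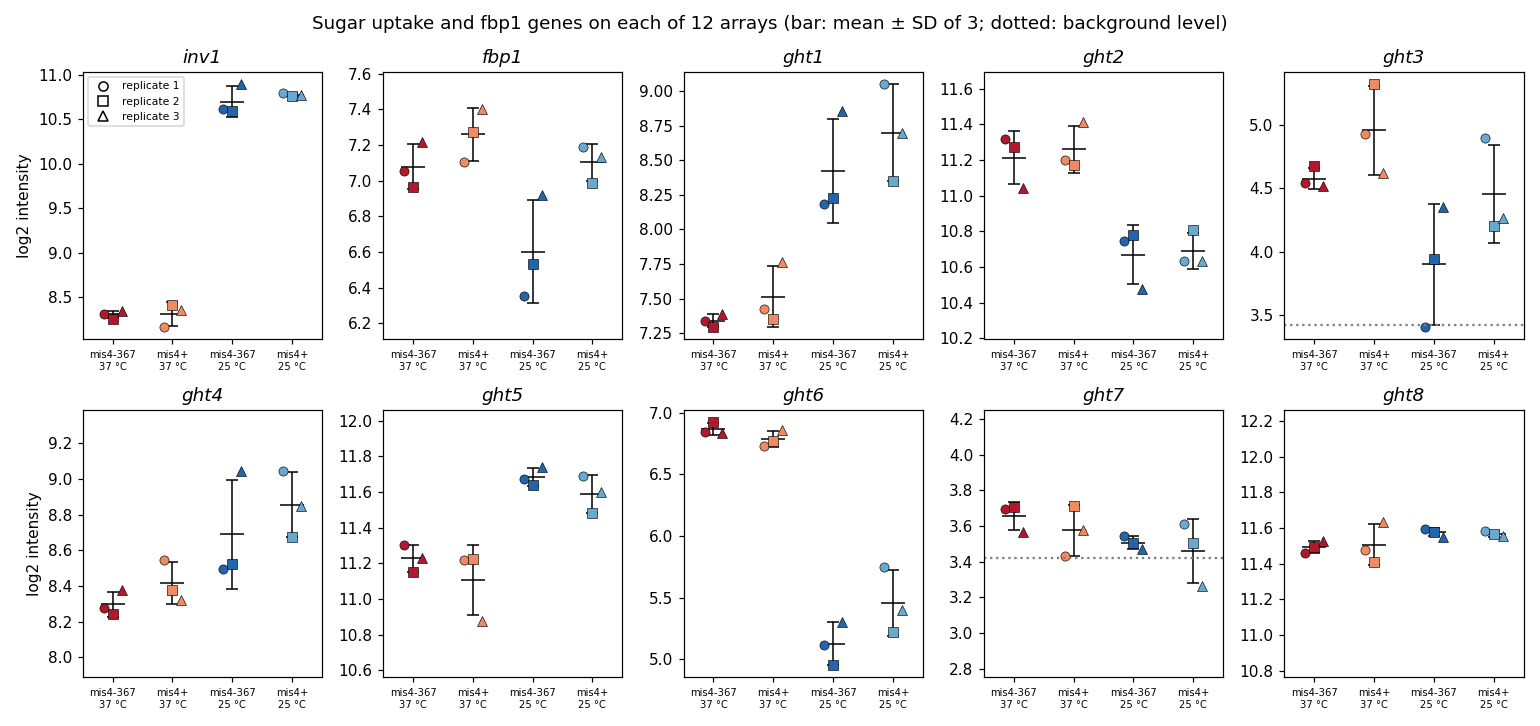
Log2 intensity (vertical axis, its own range per panel) of the 10 genes on the 12 arrays, by group from mis4-367 at 37 °C on the left to mis4+ at 25 °C on the right; symbols mark replicates 1 to 3, bars the mean ± SD of 3 arrays, and the dotted line the background level of 3.42. The inv1 arrays at 37 °C lie between 8.17 and 8.41 and those at 25 °C between 10.59 and 10.90, while ght8 lies between 11.41 and 11.63 throughout.

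The first question was how these genes moved when arrested cells went from 25 to 37 °C. In mis4-367, 4 of the 10 rose (fbp1, ght2, ght3 and ght6), 4 fell (inv1, ght1, ght4 and ght5), and ght7 and ght8 did not pass. In mis4+, ght2 and ght6 rose, inv1, ght1, ght4 and ght5 fell, and fbp1, ght3, ght7 and ght8 did not pass. These counts of 8 and 6 of 10 stand beside 56.4% of all genes that changed in mis4-367 (33.4% rose and 23% fell) and 55.3% in mis4+ (33.4% rose and 21.9% fell), so the share in mis4+ was close to that of all genes. Called in the same direction in both strains were 6 members and 46.6% of all genes. The arrays at 37 °C did not overlap those at 25 °C for 10 of the 10 members in mis4-367 and for 6 in mis4+, as for 70.8% and 60.4% of all genes. The median absolute log2 change of the members was 0.51 in mis4-367 and 0.49 in mis4+, beside 0.20 and 0.19 for all genes. Their signed medians were 0.04 and 0.03, beside 0.04 and 0.04.

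The invertase gene inv1 gave the largest response among the members. In mis4-367 its intensity was 319, 307 and 325 at 37 °C, against 1564, 1542 and 1907 at 25 °C. In mis4+ it was 287, 341 and 328 at 37 °C, against 1782, 1732 and 1754 at 25 °C. Every array at 37 °C was far below every array at 25 °C, and the strains overlapped at each temperature. The change was -2.39 ± 0.08 (SE, log2), or 5.25-fold lower, in mis4-367 (adjusted p = 5.12e-10) and -2.47 ± 0.08, or 5.53-fold lower, in mis4+ (adjusted p = 3.87e-10). Among the 2896 genes it ranked 2 from the lowest in both strains.

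The other gene outside the transporter family, fbp1, did not follow inv1. In mis4-367 it had intensities of 133, 125 and 149 at 37 °C, against 81.8, 92.7 and 121 at 25 °C, and the groups did not overlap. In mis4+ it had 138, 155 and 169 at 37 °C, against 146, 127 and 141 at 25 °C, and the groups overlapped. Its change was 0.48 ± 0.13 (SE, log2), 1.39-fold higher, in mis4-367 (adjusted p = 0.00646), and 0.16 ± 0.13 in mis4+ (adjusted p = 0.31). The difference between these responses was 0.32, with a 95% confidence interval of -0.07 to 0.71, and was not past the threshold in the interaction test (adjusted p = 0.824).

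Among the known glucose carriers, ght5 and ght1 fell while ght2 rose. The high-affinity gene ght5 read 2525, 2278 and 2396 in mis4-367 at 37 °C, against 3262, 3187 and 3424 at 25 °C. In mis4+ it read 2379, 2390.3 and 1880.1 at 37 °C, against 3303, 2857 and 3102 at 25 °C. Within each strain every array at 37 °C was below every array at 25 °C, and the lowest value came from replicate 3 of mis4+ at 37 °C, the array that stood apart. The fall was -0.46 ± 0.09 (SE, log2; 1.37-fold lower, adjusted p = 0.000785) in mis4-367 and -0.48 ± 0.09 (1.40-fold lower, adjusted p = 0.00056) in mis4+. Without replicate 3 of mis4+ at 37 °C it was -0.37 in mis4+ (adjusted p = 0.000484).

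The glucose carrier gene ght1 fell by more, and its replicates at 25 °C were further apart. It read 162, 157 and 167 in mis4-367 at 37 °C, against 291, 300.0 and 462 at 25 °C. In mis4+ it read 172, 163 and 217 at 37 °C, against 530.1, 326 and 414 at 25 °C. No array at 37 °C reached the lowest at 25 °C in its strain. The changes were -1.08 ± 0.19 (SE, log2; 2.12-fold lower, adjusted p = 0.000383) in mis4-367 and -1.18 ± 0.19 (2.27-fold lower, adjusted p = 0.000218) in mis4+.

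The third glucose carrier gene, ght2, moved the opposite way. It read 2555, 2478 and 2110.2 in mis4-367 at 37 °C, against 1719, 1759 and 1427 at 25 °C. In mis4+ it read 2351, 2307 and 2723 at 37 °C, against 1586, 1791 and 1590.1 at 25 °C. The lowest array at 37 °C was above the highest at 25 °C in each strain. The rise was 0.54 ± 0.10 (SE, log2; 1.46-fold, adjusted p = 0.0005) in mis4-367 and 0.57 ± 0.10 (1.48-fold, adjusted p = 0.000396) in mis4+.

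The largest rise was that of ght6, the fructose-preferring carrier, which the reference table also lists under the older name meu12. In mis4-367 it read 115, 121 and 114 at 37 °C, against 34.7, 31.0 and 39.5 at 25 °C. In mis4+ it read 106, 109 and 116 at 37 °C, against 53.6, 37.3 and 42.2 at 25 °C. The strains overlapped at each temperature, and 37 °C was above 25 °C on all arrays. The rise was 1.74 ± 0.11 (SE, log2; 3.35-fold, adjusted p = 1.30e-07, rank 17 from the highest of all genes) in mis4-367 and 1.33 ± 0.11 (2.52-fold, adjusted p = 1.45e-06, rank 35) in mis4+. The difference between the responses was 0.41 (95% confidence interval 0.06 to 0.76), with an unadjusted p of 0.0264 in limma and an adjusted p of 0.824.

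The gluconate carrier gene ght3 was dim and its replicates scattered. It read 23.2, 25.5 and 22.9 in mis4-367 at 37 °C, against 10.6, 15.4 and 20.4 at 25 °C, and 30.4, 39.9 and 24.5 in mis4+ at 37 °C, against 29.8, 18.4 and 19.3 at 25 °C. The groups were apart in mis4-367 and overlapped in mis4+. The change was 0.67 ± 0.24 (SE, log2; adjusted p = 0.0287) in mis4-367 and 0.50 ± 0.24 (adjusted p = 0.0942) in mis4+. The call in mis4-367 was lost without replicate 1 or 2 at 25 °C or any 1 of the 3 replicates at 37 °C, and in mis4+ the change passed without replicate 1 at 25 °C or replicate 3 at 37 °C. Over these and the other alternatives, adjusted p was 0.00724 to 0.725 in mis4-367 and 0.0257 to 0.79 in mis4+. After quantile normalization the changes were 0.11 in mis4-367 and -0.08 in mis4+.

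A small fall was found for ght4. It read 310, 303 and 333 in mis4-367 at 37 °C, against 361, 368 and 528 at 25 °C, and 374, 333 and 320 in mis4+ at 37 °C, against 528, 409 and 461 at 25 °C. The groups did not overlap in either strain. The change was -0.39 ± 0.13 (SE, log2; 1.31-fold lower, adjusted p = 0.0239) in mis4-367 and -0.44 ± 0.13 (1.36-fold lower, adjusted p = 0.0137) in mis4+. In mis4-367 the call was lost without replicate 3 at 25 °C, where the change was -0.21 (adjusted p = 0.0939), or without replicate 1 or 2 at 37 °C. In mis4+ it was lost without replicate 1 at 25 °C (adjusted p = 0.0632).

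The transporter gene ght8 was the steadiest of the bright members. It averaged 2884 ± 71 (SD, n = 3) in mis4-367 at 37 °C, against 3052 ± 48 at 25 °C, and 2914 ± 236 in mis4+ at 37 °C, against 3034 ± 33 at 25 °C. Its change was -0.08 ± 0.05 (SE, log2; 95% confidence interval -0.20 to 0.04) in mis4-367 and -0.06 ± 0.05 (-0.18 to 0.06) in mis4+. It passed the test in mis4+ when replicate 3 at 37 °C was left out (-0.12, adjusted p = 0.0141). Close to background, ght7 read 12.9, 13.1 and 11.9 in mis4-367 at 37 °C, against 11.6, 11.4 and 11.1 at 25 °C. In mis4+ it read 10.8, 13.1 and 11.9 at 37 °C, against 12.2, 11.3 and 9.61 at 25 °C. Its change was 0.15 ± 0.09 (SE, log2) in mis4-367 and 0.11 ± 0.09 in mis4+ (adjusted p = 0.16 and 0.283), and quantile normalization turned its sign.

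**Figure D2:**
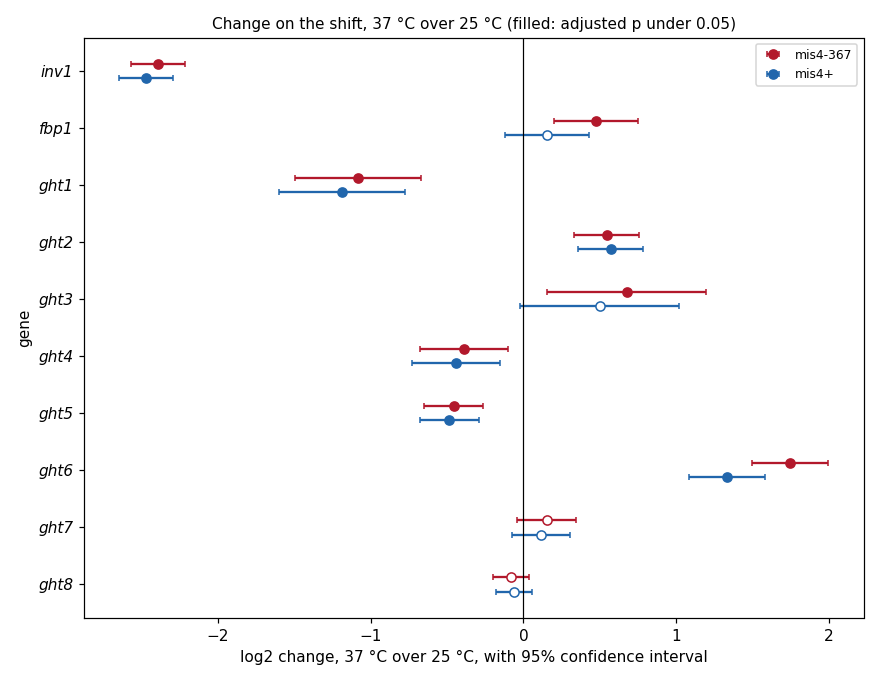
Log2 change from 25 °C to 37 °C (horizontal axis, 37 °C over 25 °C, with 95% confidence intervals) of the 10 genes in mis4-367 (upper point of each pair) and mis4+ (lower point); filled points passed at adjusted p under 0.05. The points of inv1 lie at -2.39 and -2.47 and those of ght6 at 1.74 and 1.33, and the intervals of ght8 span 0 in both strains.

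Neighbouring transporter genes on chromosome III did not share a direction. In that stretch ght6 rose, ght5 and ght1 fell, and ght8, directly beside ght1, did not pass in either strain. Of the 6 other protein-coding genes there, 2 were measured. The diacylglycerol acyltransferase gene dga1 was at 0.07 in mis4-367 and 0.11 in mis4+ (log2, adjusted p = 0.304 and 0.119), and urm1, for a ubiquitin-like modifier, rose by 0.25 and 0.22 (adjusted p = 0.00801 and 0.0166).

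The next question was whether the mis4 allele altered these genes at 37 °C, its restrictive temperature. None of the 10 passed, where 7.18% of all genes changed, and none had an unadjusted p under 0.05 (limma), beside 29.4% of all genes. The groups overlapped for all 10 members and were apart for 24.6% of all genes. The members' changes ran from -0.38 (ght3) to 0.12 (ght5) on the log2 scale, with a median of -0.03 beside -0.05 for all genes.

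The intervals show how large a strain difference remains possible. For inv1 the levels were 317 ± 9 (SD, n = 3) in mis4-367 and 319 ± 28 in mis4+ at 37 °C, and the change was 0.00 with a 95% confidence interval of -0.18 to 0.17 (log2). For ght8 the interval was -0.13 to 0.11, for ght5 -0.07 to 0.31, for ght2 -0.26 to 0.17 and for ght6 -0.17 to 0.33. Wider intervals belonged to fbp1 (-0.46 to 0.09), ght4 (-0.41 to 0.17), ght1 (-0.59 to 0.24) and the dim ght3 (-0.90 to 0.14).

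At 25 °C, the permissive temperature, none of the 10 passed either, where 0.622% of all genes changed. Unadjusted p under 0.05 was found for fbp1, ght3 and ght6 (limma), which is 3 of 10 beside 11.4% of all genes, and all 3 were lower in mis4-367. The median of the members was -0.12, beside -0.03 for all genes.

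The gluconeogenesis gene fbp1 had the smallest p of the members in this comparison. Its values of 81.8, 92.7 and 121 in mis4-367 lay below the 146, 127 and 141 of mis4+, and it was the only member whose groups did not overlap, as those of 32.7% of all genes did not. The change was -0.50 ± 0.13 (SE, log2), 1.42-fold lower (unadjusted p = 0.0018, adjusted p = 0.0996). It passed without replicate 3 of mis4-367, where the change was -0.66 (adjusted p = 0.0241), and its adjusted p ran from 0.0241 to 0.388 over the alternatives. After the shift its strain difference was -0.18 (adjusted p = 0.356).

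The other members with an unadjusted p under 0.05 were ght3 and ght6. For ght3 the change was -0.55 ± 0.24 (SE, log2; adjusted p = 0.398), with values near the background level in mis4-367. For ght6 it was -0.33 ± 0.11 (adjusted p = 0.258), against 0.08 ± 0.11 at 37 °C (adjusted p = 0.66). At 25 °C inv1 averaged 1671 ± 205 (SD, n = 3) in mis4-367 and 1756 ± 25 in mis4+, a change of -0.08 (adjusted p = 0.77). At 25 °C ght1 was at -0.28 ± 0.19 (SE, log2; adjusted p = 0.621) and ght4 at -0.17 ± 0.13 (adjusted p = 0.69), and in both the groups overlapped. At 25 °C ght5 was at 0.09, ght2 at -0.02, ght8 at 0.01 and ght7 at 0.05 (adjusted p from 0.751 to 0.976).

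**Figure D3:**
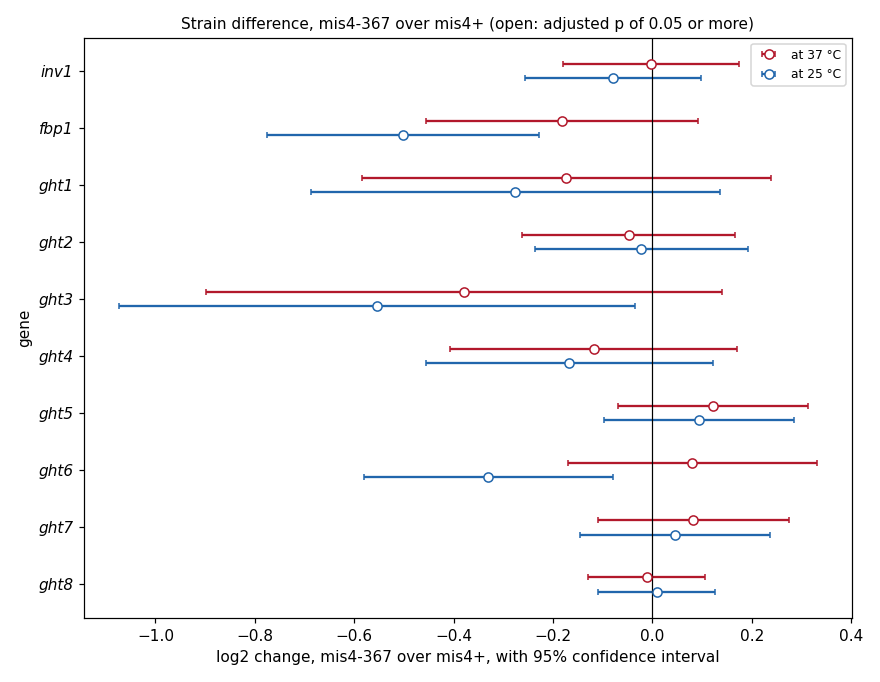
Log2 change between strains (horizontal axis, mis4-367 over mis4+, with 95% confidence intervals) of the 10 genes at 37 °C (upper point of each pair) and 25 °C (lower point); all points are open, since none passed at adjusted p under 0.05. The intervals at 37 °C all span 0, and at 25 °C those of fbp1, ght3 and ght6 lie below 0.

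The temperature responses of the strains were also compared with each other, by an interaction term. None of the 10 members passed, nor did any of the 2896 genes (0%), and an unadjusted p under 0.05 was found for ght6 among the members and for 4.87% of all genes. The differences of the members ran from -0.03 for ght2 to 0.41 for ght6 on the log2 scale, and 8 of the 10 were above 0. The median of the members was 0.06, beside -0.01 for all genes, and the share of all genes above 0 was not counted. The 4 means of ght6, from high to low, were 117 ± 4 (SD, n = 3) in mis4-367 at 37 °C, 110 ± 5 in mis4+ at 37 °C, 44.4 ± 8.4 in mis4+ at 25 °C and 35.1 ± 4.2 in mis4-367 at 25 °C. Of the neighbours in this order, mis4+ at 37 °C and mis4+ at 25 °C differed past the threshold, while the strains did not at 37 °C (adjusted p = 0.66) or at 25 °C (adjusted p = 0.258).

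Within each strain at 25 °C, the highest values of most members came from the same replicate array. For how many of all genes these arrays were highest was not counted, so the pattern cannot be called particular to the members. Replicate 3 of mis4-367 had the highest value of its group for 7 of the 10 members, namely inv1, fbp1, ght1, ght3, ght4, ght5 and ght6, and the lowest for the other 3. Replicate 1 of mis4+ had the highest value for 9 of 10, all but ght2, for which it was the lowest. For ght1 these arrays were 0.43 and 0.35 (log2) above their group means, and for ght4 0.36 and 0.19. Across the 12 arrays, with each group's mean removed, Pearson's r was 0.86 between ght1 and ght6, 0.85 between inv1 and fbp1, 0.83 between fbp1 and ght1, 0.78 between ght1 and ght4, and -0.80 between ght2 and ght4. These pairs were picked as the largest in absolute size, closely followed by ght5 and ght8 at -0.78. Other pairs were near 0, such as fbp1 and ght5 (0.03) and ght5 and ght7 (0.05). These values describe 12 arrays whose genes share the hybridization and the scaling of an array. A culture difference and an array difference were not tested against each other.

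**Figure D4:**
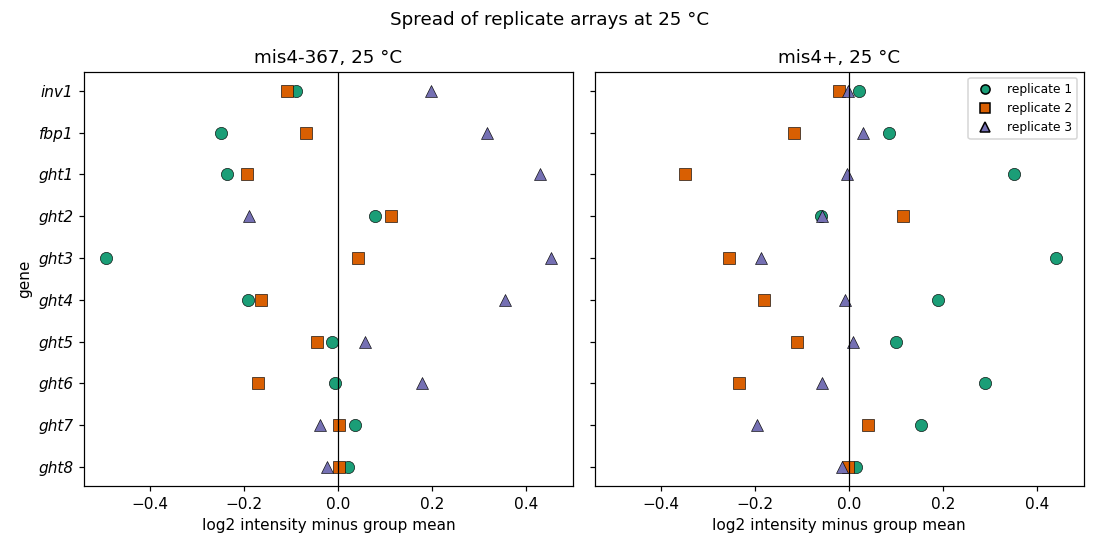
Deviation of each array from its group mean (horizontal axis, log2 intensity) for the 10 genes at 25 °C, in mis4-367 on the left and mis4+ on the right, with replicates 1 to 3 by symbol. Replicate 3 of mis4-367 and replicate 1 of mis4+ lie to the right for ght1, at 0.43 and 0.35, and for most other members.

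With the group means left in, the members formed opposed sets over the 12 arrays, as a description dominated by temperature. The level of inv1 followed ght1 (Pearson's r = 0.93), ght5 (0.90) and ght4 (0.79), and ran against ght6 (-0.96) and ght2 (-0.94). The level of fbp1 was closest to that of ght3 (0.82). For inv1 and fbp1 the sign differed between the 2 views, with -0.50 over the 12 arrays and 0.85 once group means were removed.

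Genes outside the family with the most similar levels over the 12 arrays were named by Pearson's r. For inv1 they were pyp2, which encodes a phosphatase of the stress kinase Sty1 (0.996), gut2, for a mitochondrial glycerol-3-phosphate dehydrogenase (0.996), and put4, for a proline permease (0.995). For ght1 they were gld1, for glycerol dehydrogenase (0.992), psl1 (0.988) and rsv1, for a zinc finger transcription factor (0.980), and for ght4 they were rsv1 (0.944), mug108 (0.931) and fic1 (0.914). For ght6 they were bgl2 (0.988), hsp16 (0.988) and the galactose pathway gene gal10 (0.985). For ght2 they were dbp7, for an RNA helicase (0.979), the nucleoporin gene nup124 (0.977) and ppk27 (0.972), and for ght5 syb1 (0.976), pab2 (0.971) and irs1 (0.966). For fbp1 they were the replication licensing gene cdt1 (0.955), aah2 (0.934) and mug24 (0.932), and for ght8 trm61, for a tRNA methyltransferase (0.946), alm1 (0.922) and bun107 (0.911). For the dim genes they were fio1 (0.912), gaa1 (0.868) and ccc2 (0.858) for ght7, and wtf21 (0.910), taf3 (0.909) and wtf9 (0.872) for ght3. With so many genes and so strong a temperature contrast, high values are common and carry no test.

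The listed regulators of glucose repression and its relief, repressors and activators together, mostly fell on the shift. Of 26 listed and measured, 18 fell, 3 rose and 5 did not pass in mis4-367, and 16 fell, 3 rose and 7 did not pass in mis4+. Over all genes 23% fell and 33.4% rose in mis4-367, and 21.9% fell and 33.4% rose in mis4+. The medians of the list were -0.40 and -0.25 (log2), beside 0.04 and 0.04 for all genes. The repressor gene scr1 fell by 0.77 (SE 0.11) on the log2 scale in mis4-367 and by 0.63 in mis4+ (adjusted p = 9.19e-05 and 0.000456). The activator gene rst2 fell by 0.41 in each strain (adjusted p = 2.10e-05 and 2.27e-05).

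The largest falls in the list were those of git5, gpa2, pka1, cgs1 and pcr1. The G protein beta subunit gene git5 was at -1.21 in mis4-367 and -0.90 in mis4+ (log2, adjusted p = 3.60e-07 and 5.12e-06), and the alpha subunit gene gpa2 at -0.95 and -0.90. Both subunits of the cAMP-dependent kinase fell in each strain, with pka1, the catalytic subunit, at -0.95 in mis4-367 and -0.80 in mis4+, and cgs1, the regulatory subunit, at -0.96 and -0.92. The gene pcr1, whose product pairs with Atf1 at fbp1, was at -0.83 in mis4-367 and -0.80 in mis4+ (adjusted p = 2.67e-06 and 4.30e-06). The glucose receptor gene git3 also fell, at -0.67 in mis4-367 and -0.57 in mis4+ (limma, adjusted p = 4.71e-06 and 1.97e-05). Some other genes of glucose sensing went otherwise. The adenylate cyclase gene cyr1 was at -0.13 in mis4-367 and 0.01 in mis4+ (adjusted p = 0.0652 and 0.914) and git1 at -0.17 and 0.06 (adjusted p = 0.109 and 0.574), while git7 rose by 0.31 and 0.27 (adjusted p = 0.000173 and 0.000585). Both git1 and git7 are needed to activate adenylate cyclase. All 3 genes that rose did so in each strain, the largest being the corepressor gene tup11 at 0.42 and 0.45.

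Between the strains, the glucose receptor gene git3 was lower in mis4-367 at both temperatures. At 37 °C git3 was at -0.45 ± 0.07 (SE, log2; adjusted p = 0.00517), git5 at -0.34 ± 0.09 (adjusted p = 0.0428) and the stress kinase gene sty1 at -0.26 ± 0.06 (adjusted p = 0.029), which makes 3 of 26 lower and none higher, beside 7.18% of all genes called in either direction. At 25 °C git3 was at -0.35 ± 0.07 (adjusted p = 0.0409), and the other 25 did not pass, beside 0.622% of all genes called. With only the arrays of the 2 groups compared in the fit, none of the 3 passed at 37 °C. At 37 °C, git5 and sty1 lost their calls without replicate 3 of mis4+, or without replicate 1 or 2 of mis4-367, and git5 also without replicate 3 of mis4-367. Quantile normalization ended the calls of git5 at 37 °C (adjusted p = 0.095) and git3 at 25 °C (adjusted p = 0.108). The call of git3 at 25 °C was also lost without any 1 array of either group, except replicate 3 of mis4-367. The strain differences of scr1 were -0.18 at 37 °C and -0.04 at 25 °C, and those of rst2 0.04 and 0.04 (adjusted p from 0.312 to 0.945).

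In the glycolysis and fermentation list, 3 of 13 genes changed on the shift in mis4-367 and 5 of 13 in mis4+. Of 17 listed, 13 were measured. In mis4-367, 2 rose, 1 fell and 10 did not pass, and in mis4+ 4 rose, 1 fell and 8 did not pass, with medians of 0.01 and 0.08 (log2). Of all genes, 56.4% were called in mis4-367 and 55.3% in mis4+. The enolase gene eno102 rose by 1.45 ± 0.08 (SE, log2; 2.73-fold) in mis4-367 and 1.26 ± 0.08 (2.39-fold) in mis4+ (adjusted p = 1.76e-08 and 7.21e-08). The phosphofructokinase gene pfk1 rose by 0.18 in each strain, pgk1 rose by 0.16 in mis4+, and the alcohol dehydrogenase gene adh4 was at -0.53 in mis4-367 and -0.29 in mis4+ (adjusted p = 0.000511 and 0.0237). In mis4+ the call of pgk1 was lost without replicate 3 at 25 °C, and that of adh4 without replicate 1 or 2 at 25 °C or replicate 1 at 37 °C, and both with the compared groups alone in the fit. No gene of the list passed between the strains at either temperature.

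Other sugar genes moved in both directions. Of 11 listed, 9 were measured, and 4 rose, 3 fell and 2 did not pass in each strain, where 33.4% of all genes rose in each strain and 23% fell in mis4-367 and 21.9% in mis4+. The rises were led by the alpha-galactosidase gene mel1 (2.81 in mis4-367 and 2.19 in mis4+, log2), gal10 (1.78 and 1.81) and the galactokinase gene gal1 (1.49 in each strain). The gene gti1, an inducer of gluconate transport, fell by 1.20 in mis4-367 and by 1.21 in mis4+. Of these 9 genes mel1 alone passed between the strains, at -0.53 ± 0.08 (SE, log2) at 37 °C and -1.15 ± 0.08 at 25 °C (adjusted p = 0.00517 and 1.58e-05). At 25 °C mel1 was dim, with mean intensities of 13.7 in mis4-367, close to the background level of 10.7, and 30.4 in mis4+. At 37 °C it averaged 96.1 in mis4-367 and 139 in mis4+. Its rise in mis4-367 and its strain difference at 25 °C thus rest on a group near background.

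**Figure D5:**
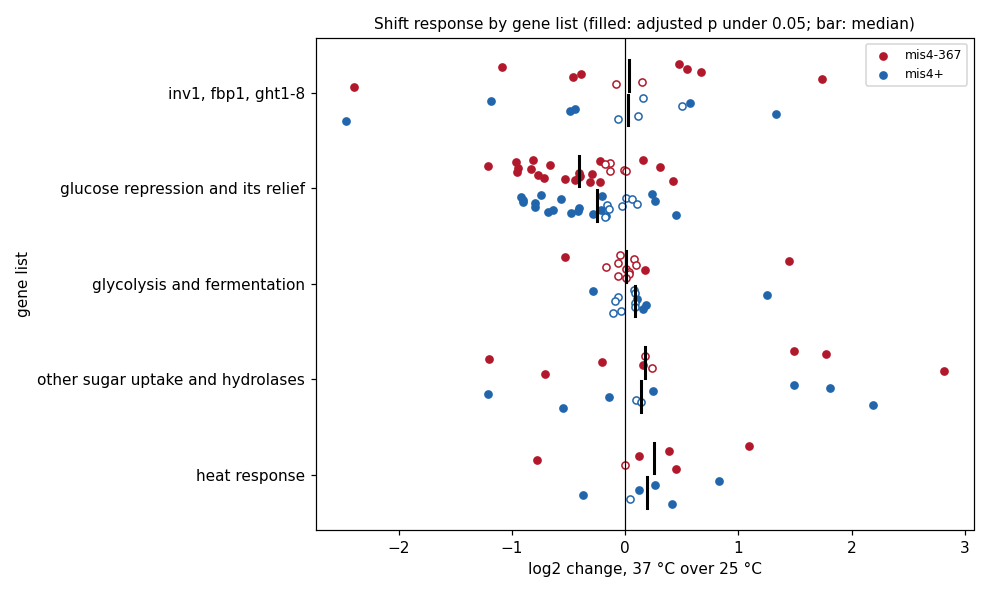
Log2 change from 25 °C to 37 °C (horizontal axis) of each measured gene of 5 sets, with mis4-367 above mis4+ in each set; filled points passed at adjusted p under 0.05 and vertical bars mark medians. The regulators of glucose repression and its relief have medians of -0.40 and -0.25. The genes inv1, fbp1 and ght1 to ght8 spread from -2.47 to 1.74 around medians of 0.04 and 0.03.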

How the data were processed

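The authors deposited 1 intensity value per array and probe set on a linear scale (maximum 12169), made by RMA per the submitters' processing notes, with no version or settings named. RMA equalises the arrays' distributions, so a broad shift of RNA would be flattened. Arrays have no sequencing depth, and precision depends on their number and on the spread of the replicates. In comparisons of groups, the median SE over all genes was 0.065 (log2), and SEs of the members ran from 0.0540 to 0.238. Of 10928 probe sets, 2914 matched 1 gene of the reference table, and the brightest per gene left 2896 genes. Values were log2-transformed as deposited. Group means of all 12 arrays were fitted once in limma 3.58.1 (R 4.3.3, eBayes), with 5 contrasts and Benjamini-Hochberg adjustment over all genes. Comparisons share arrays, since each group enters several. Background was the 95th percentile of 2601 probe sets named for another yeast. The script was tested on simulated data. Figures used matplotlib 3.10.9.

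Members and lists were chosen with earlier results of these data known. Named were all members, scr1 and rst2, and per list and comparison up to 4 genes that passed with the largest change; the 3 genes most like each member were taken by Pearson's r. The genes dga1, urm1, git7, cyr1 and git1 were added after their values were seen. Alternatives were re-centring, quantile normalization, a pseudocount of 16, the mean of probe sets, a filter on dim genes, the compared groups alone, a trended fit, replicate blocks and leaving out each array. Sequences were not used here.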

Additional observations from a re-analysis of the deposited data

How the results depend on the processing

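For the shift, 8 members changed in mis4-367 and 6 in mis4+; leaving out each array gave 6 to 7 and 6 to 8, and the other alternatives 8 to 9 and 6 to 7. The calls of inv1, ght1, ght2, ght5 and ght6 held in both strains, and that of fbp1 in mis4-367, under all 15 alternatives of each comparison. Between the strains, 0 members changed at 37 °C under every alternative, and 0 in the interaction; at 25 °C the count was 0 to 1 when each array was left out. Quantile normalization lost the ght3 call in mis4-367 and reversed ght7, to -0.29 in mis4-367 and -0.28 in mis4+ (adjusted p = 0.0362 and 0.0443); the cause was not tested. With the compared groups alone in the fit, ght7 passed in mis4-367. Cultures with the same replicate number did not deviate together before and after the shift (r from -0.09 to 0.09 over 6 pairs), so the numbers were not used as pairs; with the replicate block 1 member, fbp1, passed at 25 °C (adjusted p = 0.0463), git5 did not pass at 37 °C (adjusted p = 0.0613), and no other count of members changed by more than 1.5 times. Over all genes, the 208 called between strains at 37 °C became 10 with the compared groups alone and 22 to 566 with each array left out. The 18 at 25 °C became 154 with the compared groups alone, 3 after quantile normalization and 5 to 14 with each array left out. The interaction had 0, and 1 without replicate 2 of mis4-367 at 25 °C. Of 658 repeats in which a gene passed neither before nor after, 51 had the opposite sign. Signal near background limits ght3 and ght7 and, outside the members, mel1 in mis4-367 at 25 °C.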
